A study of Mus musculus with 12 samples.

Results

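Tumour-associated macrophages from PyMT breast tumours were compared between S1PR1 knockout and wild-type mice, using 4 of the 12 arrays of the series. The KO_PyMT group (S1PR1 KO) and the WT_PyMT group (wild type) each had 2 arrays, all from female C57BL/6 mice. The mixed control and the repeat array were left out, and the 4 arrays of the MCA fibrosarcoma groups (S1PR1 KO and wild type, male C57BL/6 mice) served for comparison. The RNA came from pooled cells sorted for high CD11b. Whether the 2 replicates of a genotype are separate pools or mice is not stated, so any p-value rests on array-to-array spread that may be purely technical. Which cells lacked S1PR1, how it was deleted and the age of the mice are not given in the sources used here. Of 21946 genes with a symbol on the array, 11583 had a probe above background on at least 2 of the 4 arrays and were tested. Of these, 10395 were above background on both arrays of at least 1 genotype. Counts, shares and medians below run over the tested genes unless another set is named.

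S1PR1 is a cell surface receptor for sphingosine-1-phosphate, a lipid that is made by sphingosine kinases, exported from cells and degraded by a lyase. Tumour macrophages take up dead cells, present antigen, and release chemokines, growth factors and cytokines such as interleukin-1β, which is matured by caspase-1 in the NLRP3 inflammasome. PyMT mice carry the polyoma middle T oncogene and develop mammary tumours, whereas MCA fibrosarcomas are induced with methylcholanthrene.

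The 4 arrays had a median raw signal of 86.8 to 92.5 and were on 1 BeadChip, where position went with genotype. The knockout arrays had 19147 and 18316 probes above background and the wild-type arrays 19771 and 20756, so both wild-type arrays had more. S1pr1 could not be used to check the labels. Its only probe gave raw intensities of 85.9 and 85.6 on the knockout arrays and 76.6 and 88.2 on the wild-type arrays, and was below background on all 4 (lowest detection p 0.633). All 12 macrophage markers were above background on every array, among them Adgre1, the F4/80 antigen, and Csf1r, the receptor for colony-stimulating factor 1. The 5 monocyte markers on the array were also above background on every array, with 1 higher and 4 lower in the knockout (median -0.23). Markers of the remaining cell types were partly present. Of 13 epithelial and mammary markers, 6 and 4 were above background on the knockout arrays and 8 and 6 on the wild-type arrays. Of 11 neutrophil markers 3 to 6 were, of 8 dendritic cell markers 5 to 6, of 8 T and NK cell markers 3 to 4, of 4 B and plasma cell markers 1 to 2, of 9 mast cell, basophil and eosinophil markers 0 to 3, of 9 fibroblast markers 2 to 3 and of 7 endothelial markers 2 to 5. Epcam and Krt8, which mark epithelium, were above background on both wild-type arrays and on neither knockout array, at 4.25 and 4.13 (knockout) against 4.38 and 5.10 (wild type) for Epcam on the log2 scale. Krt14, a keratin of basal epithelium, went the other way, above background on both knockout arrays and on neither wild-type array, at 4.67 and 5.31 against 4.27 and 4.24. Over the 7 epithelial and mammary markers tested, 2 were higher and 5 lower in the knockout. Their part in the results below was not tested. One gene went against the labelled strain: C57BL/6 mice are known to carry a deletion that prevents transcription of H2-Ea, yet its only probe was above background on both wild-type PyMT arrays, at 6.00 and 6.13, and on neither knockout array, at 4.23 and 4.13. Whether that probe reads H2-Ea alone, and whether the strain background differed between the genotypes, was not tested. In sorted bulk cells, fewer cells of a type and less RNA per cell cannot be told apart.

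The knockout replicates differed more from each other than from any wild-type array. On the log2 intensity scale, on which the dimmest probes above background lay at 4.25 to 4.34, the SD of the difference over the tested genes was 0.823 between the 2 knockout arrays and 0.627 between the 2 wild-type arrays. The 4 pairs of a knockout and a wild-type array gave 0.714 to 0.781. More than a 2-fold difference separated the knockout replicates in 2116 genes and the wild-type replicates in 1221 genes, against 1648 to 1951 genes for the mixed pairs. In 1094 of the 2116 genes (51.7%) both wild-type arrays lay between the knockout arrays. MCA arrays, over the same genes, gave an SD of 0.369 to 0.473 for any pair.

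**Figure D1:**
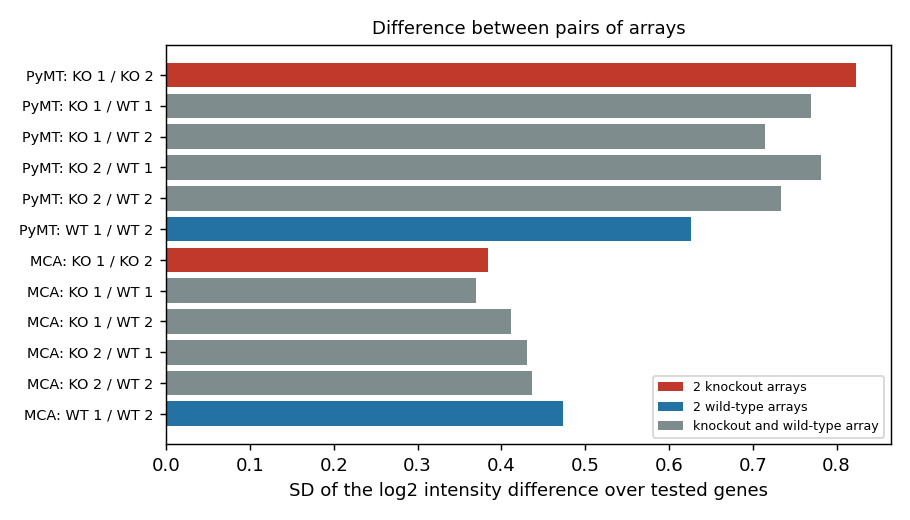
SD of the log2 intensity difference over the 11583 tested genes (horizontal axis, from 0) for each pair of PyMT arrays and each pair of MCA arrays (rows), coloured by whether the pair holds 2 knockout arrays, 2 wild-type arrays or one of each. The pair of PyMT knockout arrays has the longest bar, 0.823, and every MCA bar is shorter than every PyMT bar.

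No gene passed the test between genotypes. limma on the 4 arrays called 0 of 11583 genes (0%) at a Benjamini-Hochberg adjusted p under 0.05, with a smallest adjusted p of 0.714. Unadjusted p was under 0.05 for 785 genes (6.78%), of which 343 were higher and 442 lower in the knockout. The median difference over all tested genes was 0.00. With 2 arrays a group, an exact two-sided permutation test of a single gene could not give a p below 0.333. The values that follow are therefore measurements on these arrays, and "higher" or "lower" says on which side the knockout arrays lay, not that a test was passed. Both knockout arrays lay above both wild-type arrays (no overlap) for 1995 genes, which is 17.2% of those tested, and below both for 2183 genes, which is 18.8%. If genotype had no effect and the 4 arrays were interchangeable, a gene would show no overlap with a probability of 0.333. That probability would be split evenly between higher and lower. The shares of 17.2% and 18.8% were little above this, so no overlap by itself does not show an effect of genotype. A difference of at least 2-fold without overlap was found for 326 higher genes (2.81%) and 397 lower genes (3.43%). These counts depended on the background correction: 30 and 31 genes passed without one, and 27 and 31 in the authors' normalized values. At the 2-fold limit, Rabl3 (1.001) and Klrk1 (-1.001) were just inside and Stard3nl (-0.998) just outside.

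Different probes of a gene often disagreed. Of the 3774 genes with at least 2 tested probes, 1816 (48.1%) had a difference of 1 sign on all probes. For the 2400 genes with exactly 2 probes, the sign was shared in 58.25% and the differences correlated across genes with a Pearson r of 0.227 and a Spearman rho of 0.208 (genes are not independent replicates, and both probes were read from the same 4 RNA samples). The difference between the knockout replicates was shared by probes to the same extent, with 57.9% of signs and an r of 0.219, and that between the wild-type replicates in 55.25% with an r of 0.191. On MCA arrays the same genes gave 61.25% and 0.358 for knockout minus wild type. The MCA replicates gave 59.1% and 0.267 between the knockout arrays and 64.1% and 0.548 between the wild-type arrays. Restricting to the 1130 genes with both probes above background on all 4 PyMT arrays raised the shared sign to 61.3% and r to 0.267. Lpcat2, an acyltransferase that makes phospholipids including platelet-activating factor, was an example of disagreement. Its brighter probe read 6.07 and 5.29 on the knockout arrays and 8.52 and 8.75 on the wild-type arrays, and its other probe 5.92 and 5.19 against 4.51 and 5.14. The differences were -2.95 and 0.73, each without overlap and in opposite directions.

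**Figure D2:**
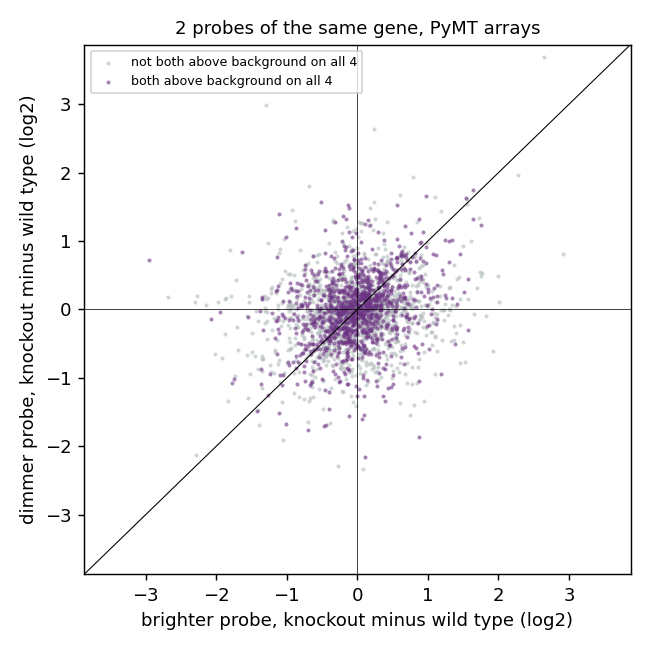
Knockout minus wild-type difference (log2) of the dimmer probe (vertical axis) against that of the brighter probe (horizontal axis) for the 2400 genes with exactly 2 tested probes on PyMT arrays. Points are genes, purple where both probes were above background on all 4 arrays, and the diagonal marks equal differences; the cloud is round rather than drawn out along the diagonal (r = 0.227).

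Some genes separated the genotypes on every probe. All probes lay without overlap in 1 direction for 105 higher genes (2.78% of 3774) and 180 lower genes (4.77%). Among the higher genes was Folr2, a folate receptor carried by resident-type macrophages. It read 7.03 and 7.10 on the knockout arrays against 4.60 and 4.97 on the wild-type arrays, and its other probe 7.31 and 5.87 against 4.38 and 4.85. Both knockout arrays were well above both wild-type arrays on either probe, and the brighter probe differed by 2.28 ± 0.28 (SE; limma adjusted p = 0.714). Vps39, a subunit of the HOPS complex that tethers late endosomes to lysosomes, differed by 1.65 and 1.75 on its 2 probes, at 7.26 and 6.81 against 5.64 and 5.14 on the brighter one. Timp1, an inhibitor of matrix metalloproteinases, was 5.79 and 6.82 against 5.09 and 4.42, and its probes gave 1.55 and 1.54. Cd151, a tetraspanin that binds laminin-binding integrins, had 3 probes with differences of 1.21 to 2.05, but its brightest probe stood at 5.92 on one knockout array and 8.07 on the other. Erdr1 had the largest differences, 2.64 and 3.69, yet its brighter probe read 9.96 and 9.69 on the knockout arrays against 8.99 and 5.38 on the wild-type arrays, and without wild-type replicate 2 the difference of this probe was 0.84. The other higher genes of this kind were Lcor, Tsen15, Med23 (a Mediator subunit), Man2a2 (a Golgi mannosidase) and Exd2, with smallest probe differences of 1.23 to 1.54.

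Of the lower genes, Slc44a2, a choline transporter-like protein, was measured by 3 probes, which differed by -1.41, -2.20 and -1.21. Its brightest probe read 7.05 and 6.76 on the knockout arrays and 8.27 and 8.38 on the wild-type arrays, with no overlap. Uhrf1bp1 also had 3 probes, from -1.60 to -1.23, and was 5.25 and 6.02 against 7.33 and 7.13. Ppp1r11, an inhibitory subunit of protein phosphatase 1, differed by -1.43 and -1.49, at 6.13 and 6.88 against 7.99 and 7.87. The remaining 7 were Ccdc181, Ralgps2, Ylpm1, Adcy4 (an adenylate cyclase), Rgl2, Gpatch11 and Sdhaf1 (an assembly factor of succinate dehydrogenase). Ccdc181, Ralgps2, Ylpm1, Adcy4, Rgl2 and Sdhaf1 were above background on at most 1 knockout array. On MCA arrays the differences of the 20 genes were at most 0.63 in size on the brightest probe.

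**Figure D3:**
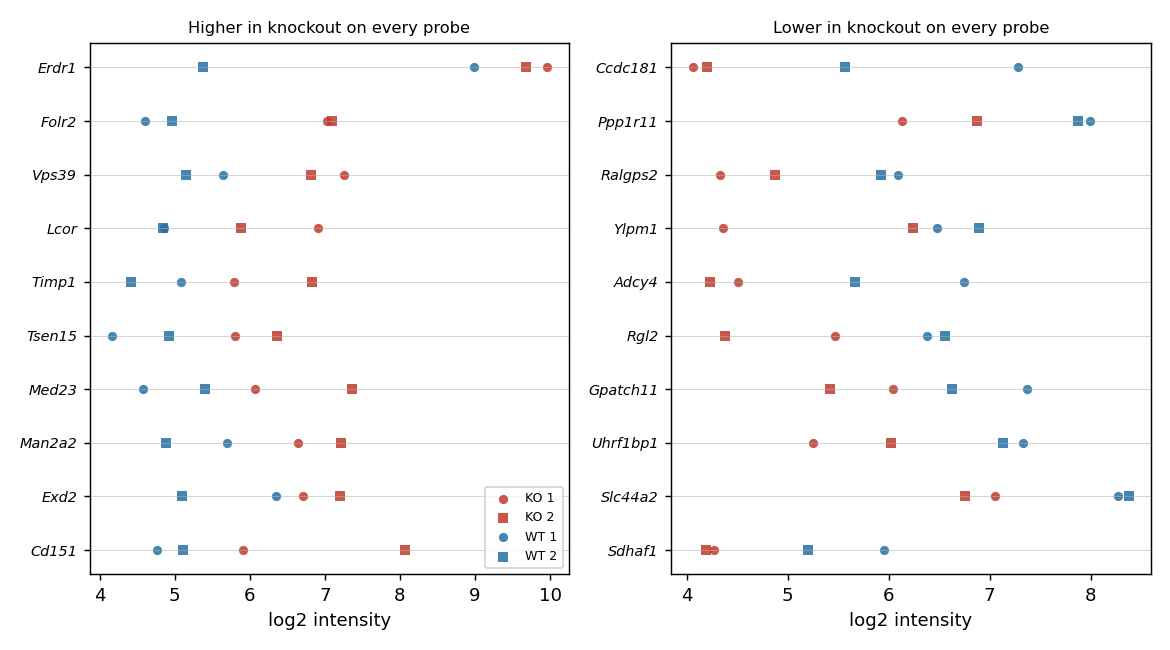
Log2 intensity (horizontal axis) of the brightest probe on each PyMT array for the 10 genes higher (left) and the 10 genes lower (right) in the knockout on every probe. Red marks are knockout arrays and blue marks wild-type arrays, circles replicate 1 and squares replicate 2; red and blue do not overlap for any gene, which is how they were chosen, and Erdr1 on the left has 1 wild-type array near the knockout arrays.

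Taking the smallest p where all 4 arrays were above background, the higher genes were R3hcc1l, Folr2, Adamtsl5, Tppp3, Kpna1 (an importin that carries proteins into the nucleus) and Mterf4 (a mitochondrial ribosome factor). R3hcc1l read 6.85 and 6.61 on the knockout arrays and 4.56 and 4.53 on the wild-type arrays. Kpna1 read 6.74 and 6.91 against 5.16 and 5.27. The differences of the 6 genes were 1.61 to 2.56 with SE 0.26 to 0.42. The lower genes were Lpcat2, Abcd3 (a peroxisomal fatty acid transporter), Upf2 (a nonsense-mediated decay factor), Psmf1 (a proteasome inhibitor), Hacd4 (an enzyme of very long chain fatty acid synthesis) and Chd1 (a chromatin remodeller). Upf2 read 5.50 and 5.20 against 7.24 and 7.10, and Psmf1 4.53 and 4.74 against 6.21 and 6.38. The 2 replicates of a genotype were not always close: Mterf4 read 5.23 and 6.25 on the wild-type arrays, and Tppp3 6.75 and 7.65 on the knockout arrays. All 12 genes had an adjusted p of 0.714 by limma. Several had other probes without such a difference: the second probe of Abcd3 gave -0.14, and 2 of the 4 probes of Chd1 gave -0.14 and -0.22. R3hcc1l, Adamtsl5, Tppp3, Kpna1, Mterf4, Upf2, Psmf1 and Hacd4 each had a single tested probe, so agreement of probes could not be examined.

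Some genes were above background in 1 genotype alone. There were 187 such genes in the knockout and 426 in the wild type, and wild-type arrays also had more probes above background in all. The bound on the fold exceeded 2 in 18 and 32 of them. Where a gene was below background on both arrays of a genotype, the fold is a lower bound against the dimmest signal above background on those arrays, or the gene's own signal if higher. Tfap2c, which encodes transcription factor AP-2 gamma of mammary and trophoblast cells, was at least 7.36-fold higher in the knockout, but read 9.58 on one knockout array and 4.79 on the other, against 4.35 and 4.18. Serpinb6, an intracellular serine protease inhibitor, was at least 5.31-fold higher, at 6.31 and 7.03 against 4.08 and 4.08. Phlda3 was at least 3.73-fold higher, at 6.35 and 5.97 against 4.19 and 4.09. For Nid2 the bound was 4.14-fold, with 4.80 and 7.82 on the knockout arrays, and for Abcb10 3.44-fold, with 5.08 and 7.03. Single arrays set several of these bounds: without knockout replicate 1 that of Tfap2c was 1.40-fold, and without knockout replicate 2 those of Nid2 and Abcb10 were 1.45-fold and 1.76-fold. H2-Ea, an MHC class II alpha chain, was at least 3.34-fold lower, at 4.23 and 4.13 against 6.00 and 6.13. It was read by 1 probe, and its MCA values were 4.11 and 4.09 (knockout) and 4.12 and 4.36 (wild type). Pwwp3a and Mrm3 were at least 3.99-fold and 3.47-fold lower. Ccdc181 was at least 4.28-fold lower, with 7.28 and 5.56 on the wild-type arrays, and Tbc1d22b at least 3.38-fold, with 7.76 and 4.46. Without wild-type replicate 1 these bounds were 2.36-fold and 1.08-fold. The limma adjusted p of these 10 genes was 0.714 to 0.828.

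Of 13 tested genes of the sphingosine-1-phosphate system, 6 were higher and 7 lower in the knockout, 0 were called, and 2 and 5 were without overlap, beside 17.2% and 18.8% of all tested genes. S1pr2, another receptor for the lipid, read 8.27 and 9.08 on the knockout arrays and 9.32 and 9.13 on the wild-type arrays, a difference of -0.55 ± 0.37. S1pr5 was near background in the knockout, at 4.16 and 4.67 against 5.20 and 4.97. Cers5, a ceramide synthase, differed by -0.56. Abcc1, a transporter that can export sphingosine-1-phosphate, was 5.71 and 6.04 against 4.21 and 4.73, a difference of 1.40, but its other probe gave -0.35. The median of the list was -0.11, smaller than its median of -0.40 between the 2 knockout arrays.

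Of 22 inflammasome and interleukin-1 genes, 5 were higher and 17 lower, with a median of -0.16, and 0 were called. Without overlap were 2 higher and 3 lower genes (9.09% and 13.6%), smaller shares than the 17.2% and 18.8% of all tested genes. Nlrp3, the sensor, had 2 probes that agreed: 8.95 and 9.10 (knockout) against 9.95 and 9.73 (wild type) on the first, and 8.92 and 8.91 against 9.65 and 9.50 on the second. The differences were -0.81 and -0.66. P2rx7, the ATP-gated channel upstream of the sensor, was lower on all 5 probes, by 0.38 to 1.44 in size, and without overlap on 3 of them. Its brightest probe read 5.57 and 5.93 against 7.71 and 6.67. Panx1, an ATP-releasing channel, was 5.15 and 4.19 against 5.91 and 5.83. Casp4, the caspase that senses cytosolic lipopolysaccharide, went the other way on all 3 probes, by 0.42 to 0.87, at 7.31 and 7.60 against 6.24 and 6.93 on the brightest. Il1b itself overlapped, at 10.21 and 10.003 against 10.17 and 10.29 (-0.13 ± 0.27).

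Interferon-stimulated genes were mostly lower in the knockout. Of 31 tested, 8 were higher and 23 lower, with a median of -0.42, while 50.3% of all tested genes were higher. None was higher without overlap (0 of 31) and 13 were lower without overlap (18.8% of all tested genes were), 3 of them by at least 2-fold. limma called 0 of them, and 5 had an unadjusted p under 0.05. The median was 0.05 between the knockout replicates and 0.01 between the wild-type replicates, and -0.22 without background correction. Irf7, the transcription factor that amplifies interferon production, read 4.56 and 4.24 on the knockout arrays and 6.14 and 5.74 on the wild-type arrays, a difference of -1.54 ± 0.31. Isg20, an exonuclease, was below background on both knockout arrays, at 4.38 and 4.16 against 5.38 and 5.19. Ifi35 was 4.52 and 5.12 against 6.04 and 5.63. Oasl1, of the oligoadenylate synthetase family, was 7.71 and 7.24 against 8.29 and 8.61 on its brightest probe, a difference of -0.97, while another of its 3 probes gave 0.01. Isg15, a ubiquitin-like modifier named after its values were seen, was 8.18 and 8.08 against 8.73 and 9.28. Other members overlapped: Oas2 read 8.62 and 8.17 against 7.61 and 8.41, and Eif2ak2 differed by 0.08. On MCA arrays the median of the list was -0.24.

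Interferon-stimulated genes often carry a sequence bound by interferon response factors, which contains a pair of GAAA repeats. The letters GAAANNGAAA, on either strand, were present within 250 bases before to 50 after the start site in 3.99% of the 27025 genes with a promoter entry from RefSeq (GRCm38.p6) and in 12 of the 23 tested interferon-stimulated genes with an entry (52.2%). Of the 12 with an entry that were lower without overlap, 4 had a match (33.3%), a smaller share than in the whole list. They were Isg15, Rsad2, Trim30a and Cxcl10. The Isg15 promoter (chr4:156200769-156201068, minus strand) is shown 5′ to 3′ because it had 3 matches, which overlap one another and start 78, 72 and 66 bases before the start site; capitals mark them.
Isg15 promoter: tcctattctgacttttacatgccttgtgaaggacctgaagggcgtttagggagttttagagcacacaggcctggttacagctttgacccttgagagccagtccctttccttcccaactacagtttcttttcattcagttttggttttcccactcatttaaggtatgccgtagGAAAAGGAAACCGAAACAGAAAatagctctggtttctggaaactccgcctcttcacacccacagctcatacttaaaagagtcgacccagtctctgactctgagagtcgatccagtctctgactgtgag
Irf7, Isg20, Ifi35 and Oasl1 had no match to these letters in this window. A match is a description of the sequence and not a measured site.

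Repair and alternative activation genes were mostly higher. Of 23 tested, 17 were higher and 6 lower, with a median of 0.63. Without overlap were 12 higher (17.2% of all tested genes were) and 3 lower, and 7 were higher by at least 2-fold (2.81% of all tested genes were). limma called 0, and 5 had an unadjusted p under 0.05. The list's median was 0.20 without background correction and -0.34 between the knockout replicates. Retnla, which encodes the alternative activation marker RELMα, read 8.10 and 8.77 on the knockout arrays and 5.73 and 6.61 on the wild-type arrays, a difference of 2.26 ± 0.44. Irf4, a transcription factor of alternative activation, was 6.11 and 5.45 against 4.58 and 4.17. F13a1, coagulation factor XIII A, named after its values were seen, was 8.30 and 8.26 against 7.47 and 6.55. Mrc1, the mannose receptor, was 9.14 and 9.19 against 7.80 and 8.95, and Igf1, insulin-like growth factor 1, 8.65 and 9.02 against 6.72 and 8.50. In both, 1 wild-type array was close to the knockout arrays, and another probe of Igf1 gave -0.08. Gas6, a bridge between dying cells and their receptors, had the same shape, at 6.82 and 7.17 against 4.71 and 6.81. Mgl2, the lectin CD301b, went the other way on both probes (-1.76 and -1.02), at 5.13 and 6.20 against 6.49 and 8.35. Arg1, arginase 1, and Cd163, a haemoglobin scavenger receptor, overlapped, at 6.90 and 5.57 against 6.29 and 4.33, and 6.47 and 8.23 against 7.39 and 8.29. On MCA arrays the median was 0.03, and Retnla was below background on all 4, so its difference there was not measured.

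Alternative activation by interleukin-4 acts through STAT6, which binds a TTC and GAA pair. The letters TTCNNNNGAA, which read the same on both strands, were searched in the same windows of the same entries. A match was present in 8.01% of the 27025 genes with an entry and in 6.63% of the 8505 tested genes with an entry. In the list, 3 of the 17 tested genes with an entry had a match. Of the 8 that were higher without overlap, 2 had a match, Retnla and Cbr2. The Retnla promoter (chr16:48842359-48842658, plus strand, RefSeq, GRCm38.p6) is shown 5′ to 3′ as the gene of the list with the largest difference that had a match, which starts 145 bases before the start site and is in capitals.
Retnla promoter: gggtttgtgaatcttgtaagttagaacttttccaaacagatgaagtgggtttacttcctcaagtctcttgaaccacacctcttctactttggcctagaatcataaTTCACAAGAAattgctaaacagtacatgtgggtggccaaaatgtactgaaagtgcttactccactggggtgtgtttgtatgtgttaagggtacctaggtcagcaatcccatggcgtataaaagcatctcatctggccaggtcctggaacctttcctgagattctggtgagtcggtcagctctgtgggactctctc
Folr2, Irf4, F13a1, Gas6, Igf1 and Mrc1 had no match to these letters in the windows searched.

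**Figure D4:**
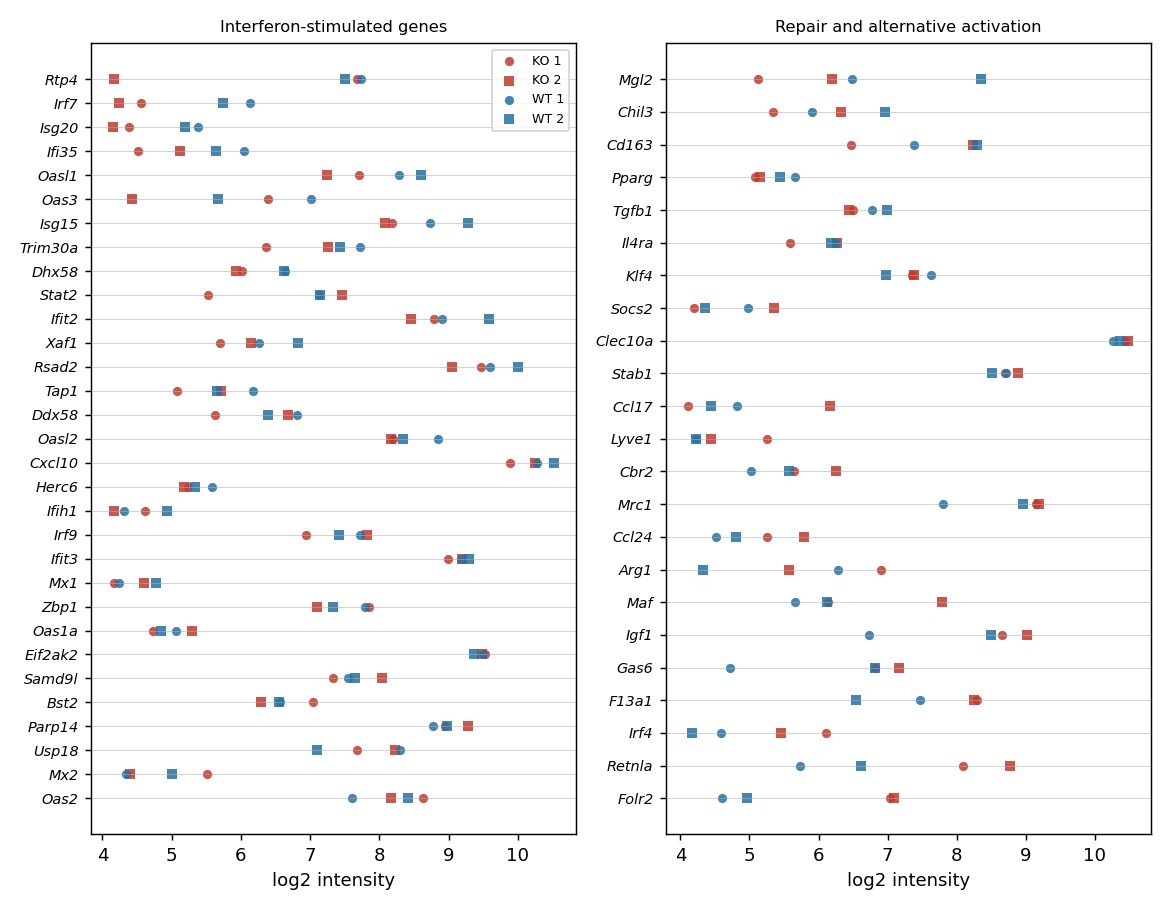
Log2 intensity (horizontal axis) on each PyMT array for the 31 tested interferon-stimulated genes (left) and the 23 tested repair and alternative activation genes (right), sorted by the knockout minus wild-type difference. Red marks are knockout and blue marks wild-type arrays, circles replicate 1 and squares replicate 2; blue lies to the right of red for 13 genes on the left, and red lies to the right of blue for 12 genes on the right.

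Chemokines were split. Of 17 tested, 10 were higher and 7 lower (median 0.19), with 9 higher and 4 lower without overlap (52.9% and 23.5%, beside 17.2% and 18.8% of all tested genes). Higher were Pf4 (platelet factor 4) at 7.18 and 6.92 against 5.27 and 6.57, Ccl24 (eotaxin 2) at 5.26 and 5.79 against 4.51 and 4.81, Ccl6 at 6.82 and 6.76 against 5.52 and 6.40, and Ccl9 at 9.94 and 9.94 against 9.25 and 8.97. Cxcl10, an interferon-induced chemokine, was 9.88 and 10.24 against 10.28 and 10.52. Among 14 tested receptors 3 were higher and 3 lower without overlap (21.4% each), near the shares of all tested genes. C5ar1, the receptor for complement C5a, read 8.66 and 8.69 against 8.05 and 7.61, and Cxcr6, the receptor for CXCL16, was below background in the knockout, at 4.12 and 4.07 against 5.62 and 5.18.

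Of 24 tested growth factor and matrix genes, 13 were higher and 11 lower, 9 and 5 of them without overlap (37.5% and 20.8%, beside 17.2% and 18.8% of all tested genes), and 5 were higher by at least 2-fold (2.81% of all tested genes were). Their median was 0.09, and -0.20 between the wild-type replicates. Hbegf, an EGF receptor ligand, was 6.55 and 8.02 against 4.15 and 6.16, and Pdgfa 8.80 and 7.77 against 6.85 and 7.52. Hypoxia and glycolysis genes were higher in 24 and lower in 8 of 32, with 12 and 3 without overlap (37.5% and 9.38%). They differed by little (median 0.13, and 0.19 between the wild-type replicates). Slc16a3, a lactate exporter, read 6.79 and 7.29 against 5.60 and 6.14 on its brightest probe, while another probe gave -0.16. Car9, a hypoxia-induced carbonic anhydrase, was 6.11 and 6.99 against 5.78 and 5.19, and Slc2a3, a glucose transporter, went the other way, at 4.86 and 4.18 against 5.59 and 5.53.

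Iron and haem genes were higher in 17 and lower in 7 of 24 (median 0.29, and also 0.29 between the knockout replicates), with 7 and 2 without overlap (29.2% and 8.33%, beside 17.2% and 18.8% of all tested genes). Slc11a2, the iron importer DMT1, was higher on all 3 probes, by 1.02 to 1.74. Hmox1, haem oxygenase 1, was 8.40 and 7.38 against 7.03 and 6.83, and Slc40a1, the iron exporter ferroportin, was lower, at 5.26 and 5.65 against 6.00 and 7.37. Of 27 lipid handling genes, 18 were higher and 9 lower (median 0.15, and 0.21 between the knockout replicates). Cd36, a fatty acid and oxidized lipid receptor, read 6.40 and 5.93 against 4.92 and 4.91, with close wild-type replicates. The tested probe of Apoc1, an apolipoprotein, was below background on both wild-type arrays, at 7.13 and 5.15 against 4.09 and 4.09, while another probe of the gene was above background on 1 wild-type array alone. Of 32 cell cycle genes, 21 were higher and 11 lower (median 0.17), with 5 and 4 without overlap (15.6% and 12.5%), near the shares of all tested genes. Aurka, a mitotic kinase, was 6.92 and 7.59 against 4.24 and 6.15. Birc5, survivin, was 7.33 and 6.43 against 5.04 and 4.94, and its other 2 probes overlapped, at 0.18 and 0.34.

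Golgi and membrane trafficking genes were lower without overlap in 12 of 33 and higher in 2 (36.4% and 6.06%, beside 18.8% and 17.2% of all tested genes). Their median was -0.25, and -0.26 between the knockout replicates. Bet1l, a Golgi SNARE protein, read 4.36 and 4.30 against 8.42 and 7.28, a difference of -3.52 ± 0.45 (limma adjusted p = 0.714), on its only tested probe. Gosr2, another Golgi SNARE, was 5.22 and 7.26 against 7.75 and 7.51, so 1 knockout array lay near the wild-type arrays. Of 22 fatty acid oxidation and peroxisome genes, 7 were higher and 15 lower (median -0.26, and -0.30 between the knockout replicates). Acadl, the long-chain acyl-CoA dehydrogenase, was 5.11 and 4.53 against 5.83 and 6.56, and its other probe gave -0.03. Among 20 antigen presentation genes 5 were higher and 15 lower (median -0.12), with Psmb9, an immunoproteasome subunit, at 8.98 and 8.90 against 9.34 and 9.34. Heat shock and unfolded protein response genes were higher in 5 and lower in 17 of 22 (median -0.14), with Bag3, a co-chaperone, at 6.72 and 6.35 against 7.25 and 7.41.

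The other 11 function lists had medians close to that of all tested genes, from -0.08 for NF-κB subunits and feedback to 0.11 for cathepsins and lysosome. They were actin, adhesion and migration (0.02), chemokine receptors (0.02), Fc, TREM and lectin receptors (0.02), immediate early genes (0.03), the respiratory chain (0.00), complement (0.00), classical activation (-0.01), Toll-like receptors and adaptors (-0.06), and scavenger and apoptotic-cell receptors (-0.07). A list median can hide members on both sides. Of 12 complement genes, 3 were higher and 5 lower without overlap (25% and 41.7%). Of 35 actin, adhesion and migration genes, 9 were higher and 9 lower without overlap (25.7% each). These stand beside 17.2% higher and 18.8% lower of all tested genes. Single members of the 11 lists also separated the genotypes. Rhoc, a small GTPase of actin control, read 6.42 and 6.23 against 4.55 and 5.22. Anxa3, an annexin, was lower on both probes (-1.25 and -0.94), at 6.89 and 6.73 against 8.21 and 7.90. Il6, the cytokine interleukin-6, was 6.32 and 5.84 against 4.86 and 5.45, while Jun, an AP-1 subunit, was 7.66 and 7.86 against 8.43 and 8.63. Complement C3 was 5.96 and 6.43 against 6.97 and 6.86, and Tnfsf9, the ligand 4-1BBL, 7.95 and 8.03 against 8.75 and 8.79. Ndufa9, a subunit of respiratory complex I, was 5.48 and 6.18 against 6.94 and 7.20.

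**Figure D5:**
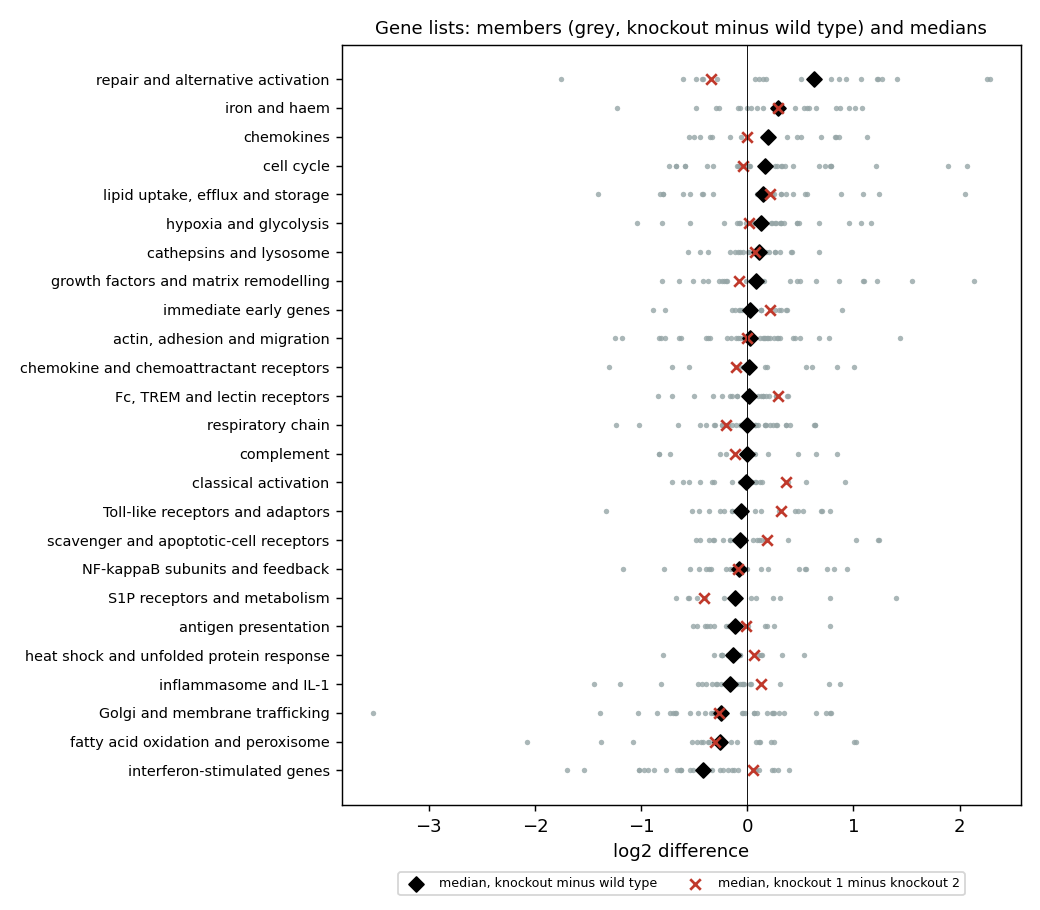
Knockout minus wild-type difference (log2, horizontal axis) of each tested member (grey points) of the 25 function lists (rows), with the median of each list (black diamonds) and the median difference between the 2 knockout replicates (red crosses). Medians run from -0.42 for interferon-stimulated genes to 0.63 for repair and alternative activation, and for several lists the cross lies as far from 0 as the diamond.

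Of the 12 macrophage markers, 5 were higher and 7 lower, with a median of -0.07. Among them 2 higher and 5 lower were without overlap (16.7% and 41.7%, beside 17.2% and 18.8% of all tested genes). The 2 were Mrc1 (0.79) and Apoe (0.23), and the 5 were Fcgr1 (-0.71), Cd68 (-0.45), C1qc (-0.26), Itgam and Csf1r. Adgre1 read 8.41 and 8.48 against 8.46 and 8.40, and the complement genes C1qa and C1qb, named after their values were seen, differed by -0.02 and 0.07. Itgam, the CD11b integrin chain used for the sort, was 7.09 and 6.43 against 7.63 and 7.55 (-0.84 ± 0.33), Csf1r 7.16 and 7.51 against 7.55 and 7.93, and Ptprc, the CD45 phosphatase of blood cells, 7.71 and 7.59 against 7.78 and 8.26.

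The knockout effect was then compared between the tumours over 8 arrays. limma called 0 of 11583 genes (0%) for the difference of the effects, and the smallest adjusted p was 0.503. An unadjusted p under 0.05 was found for 700 genes, 301 with a higher and 399 with a lower effect in PyMT. The effects had an SD over genes of 0.543 in PyMT and 0.278 in MCA macrophages, beside the wider replicate spread of the PyMT arrays. Among genes above background on all 8 arrays, R3hcc1l had the smallest p with a higher effect in PyMT (2.19 in PyMT, -0.19 in MCA, a difference of 2.38 ± 0.29). Hacd4 had the smallest p with a lower effect, at -2.01 and 0.19. Josd1, Vps39, Pgp and Ctu2 followed on the higher side and Siva1, Specc1, Banf1 and Srpr on the lower side, with adjusted p of 0.503 to 0.587 for all 10. R3hcc1l, Hacd4, Josd1, Pgp, Ctu2, Siva1 and Srpr each had a single tested probe. Tumour went with BeadChip and sex, which cannot be told apart from it.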

How the data were processed

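Single-colour Illumina BeadChip arrays measured 4 PyMT macrophage samples. Each probe's deposited intensity is a mean over beads and not normalized, per the file headers, and the deposited p-value per probe tests it against background, per the file headers. The authors also deposited normalized intensity values, by a method that the sources used here do not give. They served as an alternative. Per the labels' protocols, RNA was amplified with the µMACS SuperAmp Kit and a NuGEN Ovation Pico system, and whether every sample went through both is not stated.

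The deposited intensity of the 8 group arrays was background-corrected, quantile normalized and taken to log2 with neqc of limma 3.58.1 (R 4.3.3, data.table version 1.17.8, offset 16). A probe counted as above background at a deposited p under 0.05. Of 46237 probes, 35784 had a single symbol in the platform annotation, 0 had several and 10453 were not listed there; RefSeq (GRCm38.p6) updated 937 symbols. Each tested gene was read by its brightest probe. limma fitted the 4 PyMT arrays alone (residual df 2, prior df 2.69), and all 8 for the difference between tumours (residual df 4, prior df 3.10), with Benjamini-Hochberg adjustment over 11583 genes. The fit was tested on simulated data. Precision is limited by having 2 arrays a group.

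Members and lists were chosen with earlier results of these data known. Genes were named by these rules: the 10 in each direction with the largest smallest difference among genes without overlap on every probe; the 6 with the smallest p above background on all 4 arrays; the 5 with the largest bound in 1 genotype alone; up to 4 members of each list without overlap and above background on both arrays of a genotype; S1pr1, Nlrp3, Il1b, Itgam, Adgre1, Csf1r and Ptprc; and the 5 with the smallest p for the difference between tumours. Gene models with RIKEN or predicted names were not named. Other genes in the text were chosen after their values were seen. Alternatives were other background corrections, scalings, filters, probe summaries and fits, and leaving out each array.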

Additional observations from a re-analysis of the deposited data

How the results depend on the processing

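The PyMT comparison gave 0 called genes under all 17 alternatives, with 360 to 1552 genes at an unadjusted p under 0.05 and a smallest adjusted p of 0.0585 in the 4-group limma fit, where 1405 genes had an unadjusted p under 0.05. One alternative, every probe tested on its own, was chosen after seeing the data and gave 1394. The 4-group fit shares 1 spread between the tumours. As PyMT replicates were further apart than MCA replicates, its p-values are too small for PyMT. The difference between tumours gave 0 called genes under each alternative that kept every array. Without KO_PyMT replicate 2 it was 5.44 for Tfap2c. That value rested on KO_PyMT replicate 1 alone, which read 9.58, while the array left out read 4.79. The counts of genes at least 2-fold apart without overlap, 326 higher and 397 lower, were 73 and 71 with normexp at an offset of 50, 30 and 31 with no background correction, 27 and 31 in the authors' normalized values, and 216 and 219 when all 4 arrays had to be above background, where fewer genes were tested. Leaving out 1 array gave 455 to 762 higher and 600 to 754 lower genes, as overlap is easier to avoid with fewer arrays. Of 175 named genes, 168 kept their direction under all alternatives. Since no PyMT comparison called a gene, this says nothing about significance, and sizes were less stable: of the 97 named genes at least 2-fold apart, 51 stayed so when any 1 array was left out, 18 without background correction and 11 under all alternatives. Leaving out 1 array turned the sign of Adgre1 (-0.0214 to 0.0464), Arg1 (-0.0532 to 1.90), C1qa (-0.0773 to 0.0300) and Cd163 (-1.37 to 0.394). C1qa became 0.0716 with median scaling and C1qb -0.0104 in the authors' values, and the mean of probes gave 0.157 for Ikbkg (-1.17 on its brightest probe) and -0.0192 for Pex5 (1.02). The cause of these shifts was not tested. The share of genes whose probes shared a sign was 48.0% to 51.8%. The list medians kept their sign for interferon-stimulated genes (-0.45 to -0.22) and for repair genes (0.19 to 0.69). With the replicate number as a block in the limma fit, 0 genes were called and 708 had an unadjusted p under 0.05 in PyMT. For the difference between tumours these counts were 0 and 709. The deviations of same-numbered PyMT arrays from their genotype means had a correlation of -0.0083 over genes. Whether same-numbered arrays were handled together is not stated, and this value cannot decide it. Arrays with 39.6% to 44.9% of probes above background limit what can be said of dim genes.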

Other observations

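Genes that separated the 2 knockout replicates on every probe were more numerous than those that separated the genotypes. Of the 3774 genes with at least 2 tested probes, every probe was at least 2-fold apart in 1 direction in 61 genes higher and 66 genes lower in knockout replicate 1 than in replicate 2, in 39 and 27 genes between the wild-type replicates, and in 18 and 20 genes between the genotype means. A mean of 2 arrays varies less than a single array, so these counts are not on equal terms. Cd207, the Langerhans cell lectin langerin, was among the first of these, at 7.47 and 4.14 on the knockout arrays and 5.75 and 6.97 on the wild-type arrays. Egln1, an oxygen-sensing prolyl hydroxylase, read 7.56 and 4.90 against 6.96 and 5.94, and differed between the knockout arrays on all 3 of its probes. Zfp106 stood at 4.07 and 7.48 on the knockout arrays and at 5.58 and 5.37 on the wild-type arrays. The largest gap of this kind between the wild-type arrays was that of Erdr1. These genes were chosen after their values were seen.

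In both tumours, 7 genes were at least 2-fold apart without overlap in the same direction, which is 7 of 723 genes in PyMT and 7 of 50 in MCA macrophages. Of all 11583 tested genes, 2.81% were higher and 3.43% lower by this rule in PyMT. Gdpd3, a lysophospholipase D, read 7.75 and 7.64 against 5.05 and 6.84 in PyMT and 7.78 and 7.47 against 5.99 and 5.04 in MCA macrophages. Xpr1, a phosphate exporter, read 9.04 and 7.93 against 7.64 and 6.95 in PyMT and 9.06 and 9.26 against 7.46 and 8.18 in MCA macrophages. Another of its 5 probes gave -0.36 in PyMT. Nrp2, a neuropilin that binds semaphorins and VEGF-C, differed by 1.22 and 1.96, and another of its 4 probes gave -0.35 in PyMT. Pmp22 and Cwf19l1 were also higher in both, and Mgp, matrix Gla protein, and Olfml3 were lower in both. Mgp rested on 1 wild-type array in MCA macrophages, at 4.28 and 4.28 against 4.45 and 8.32, and differed by -0.17 without it, and Nrp2 differed by 0.19 in PyMT without knockout replicate 1. Olfml3 read 6.65 and 6.80 against 7.96 and 7.90 in PyMT and 6.69 and 5.74 against 7.78 and 7.02 in MCA macrophages. With 1 array left out, the smallest PyMT difference was 0.63 for Xpr1, 0.50 for Cwf19l1, 0.85 for Gdpd3 and 0.84 for Pmp22. For Olfml3 it was -0.71 in MCA macrophages. Each of the 7 genes thus fell below 2-fold in at least 1 tumour.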
